A study of Mus musculus with 5 samples.

Results

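The lysosomal genes described here are 44 genes chosen by name: 22 genes of lysosomal hydrolases, 3 of soluble cofactors, 6 of lysosomal membrane proteins, 12 of the proton pump (the V-ATPase) and the transcription factor gene Tfeb. Cathepsins were left out of the choice, and earlier results of these data were known when it was made. Of the 44, 41 had a probe set annotated to that gene alone, out of 12393 such genes on the array, and 37 were bright enough to be tested, out of 7436. Arsb, Cd63 and Atp6v0c were not analysed here, and Naglu, Ids, Galc and Tfeb lay below the limit on dim signals.

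The RNA was from whole C57BL6J mouse embryos taken on gestation day 9.5, with 3 arrays labelled Folr1+/+ and 2 labelled Folr1-/-. Folr1 encodes a folate receptor of the cell surface, and the study compares embryos with and without it. Per the labels' protocols, the dams of the Folr1-/- embryos were Folr1+/-, were mated with Folr1+/- sires and ate a folate-supplemented diet from before mating through gestation. Embryos were genotyped by PCR. Nothing separate is said of what the Folr1+/+ dams ate; if their diet was another one, its effect and that of the genotype cannot be told apart. The labels call the arrays biological replicates without saying if the RNA of each came from a single embryo or from pooled embryos, so p-values measure only the spread between these arrays. Dissection removed the decidua, the chorion and the amnion; the yolk sac is not mentioned. The RNA was amplified in successive rounds before labelling.

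Lysosomes are acidic organelles in which enzymes break down material taken up by endocytosis or delivered by autophagy. The V-ATPase pumps protons across the membrane by rotary catalysis: its V1 sector in the cytosol splits ATP, and its V0 sector in the membrane carries the protons. The soluble enzymes need the low pH, and several need a cofactor that presents lipids to them. Membrane glycoproteins line the organelle, and transporters and channels release the products. In embryos of this age the visceral endoderm of the yolk sac, which feeds the embryo by endocytosis, is rich in lysosomes and endocytic vacuoles.

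The arrays were alike in scale. Their trimmed mean signals were 150.06 or 150.07, and their median signals ran from 33.0 to 38.3. Correlations of log2 signals over tested genes were 0.971 to 0.982 within Folr1+/+, 0.980 within Folr1-/- and 0.926 to 0.949 between the groups. The ratio of the 3' to the 5' probe set of Actb, a measure of bias towards the 3' end, was 21.1 to 39.5 in Folr1+/+ and 22.8 and 30.5 in Folr1-/-. It varied within the groups, and the groups overlapped. All 5 arrays were thus strongly biased towards the 3' end for this gene. The Folr1 probe set did not separate the groups (log2 fold change -0.07 ± 0.20, SE, adjusted p = 0.858), and the labels do not say which part of the gene is removed, so this probe set checks nothing and every direction rests on the labels. The sex-linked genes separated the groups: Xist had 25.0 to 35.7 in Folr1+/+ and 419 and 770.4 in Folr1-/-, while Y-linked Eif2s3y had 300.3 to 372 against 104 and 3.13, and Kdm5d 89.5 to 120.5 against 25.2 and 0.796. The array labelled Folr1-/- replicate 1 thus carried both kinds of signal.

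Of the 37 tested genes, 16 rose in the arrays labelled Folr1-/-, 0 fell and 21 did not pass an adjusted p of 0.05 (limma, adjusted over all 7436 genes). Over all tested genes 8.19% rose and 6.79% fell, 15% in all. The V-ATPase held 9 of the 16, from 11 tested, the hydrolases 6 from 18, the membrane proteins 1 from 5 and the soluble cofactors 0 from 3. The median log2 fold change, Folr1-/- minus Folr1+/+ on log2(signal + 16), was 0.52 over the 37 genes and -0.02 over all genes tested. In 36 of the 37 the fold change was above 0, which held for 47.9% of all tested genes. The 2 groups did not overlap in 25 of the 37, each time with Folr1-/- higher, against 22.5% of all tested genes in that direction and 46.7% in either. Leaving out Folr1-/- replicate 1 reduced the 16 calls to 5. They were 8 when Folr1-/- replicate 2 was left out and 10 when Folr1+/+ replicate 3 was, against 3.03%, 4.98% and 5.35% of all genes higher in those sets of arrays. A gene that is bright only in Folr1-/- passes the limit on dim signals more easily, so these counts describe the 37 genes and not the whole list.

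**Figure D1:**
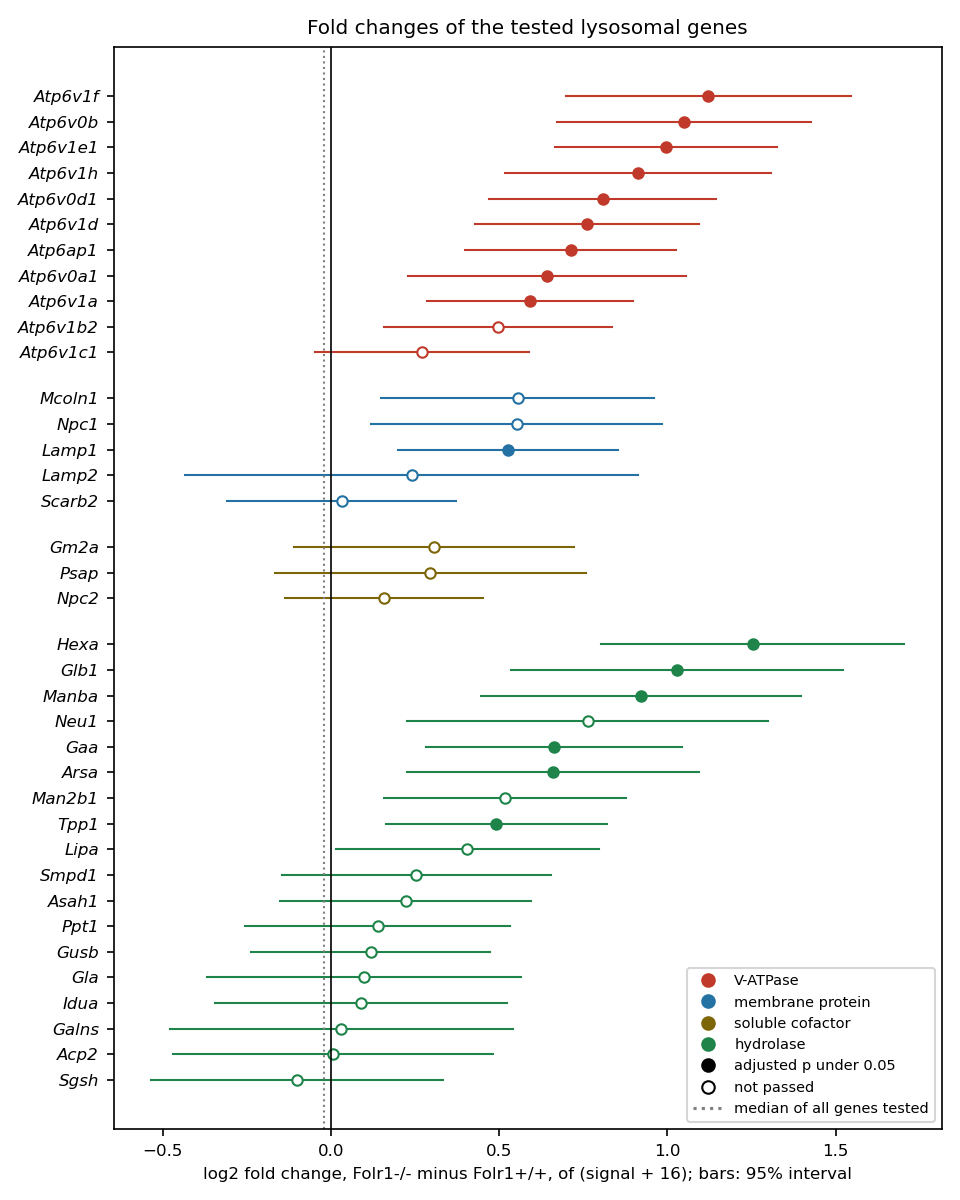
Log2 fold change of each of the 37 tested lysosomal genes (x axis, log2 of signal + 16, Folr1-/- minus Folr1+/+), by class, with its 95% interval; filled points passed an adjusted p of 0.05 and the dotted line is the median of all genes tested (-0.02). The V-ATPase genes lie between 0.27 and 1.12, while the hydrolases spread from -0.10 to 1.25.

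TFEB and its relatives bind a palindromic element in the promoters of many lysosomal genes, whose centre is CACGTG and whose longer form includes TCACGTGA. Both were looked for in the 250 bases before the start of each gene, in the RefSeq promoters of GRCm38.p6. Each reads the same on both strands, and the longer form contains the shorter. Promoters were matched for 38 of the 44 members, and 10 of them (26.3%) held CACGTG, against 10.7% of tested genes and 6.86% of all genes in the promoter table. TCACGTGA was held by 3 (7.89%), against 1.99% and 0.907%. The match is a description of these letters and not evidence of binding.

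The stretches around the matches are shown, with the element in capitals, because they let genes that rose be read beside genes that did not pass. Naglu, too dim to test, held the tenth match. Among the 15 matched members that rose 6 held CACGTG, and among the 16 that were tested and did not pass 3 did. For TCACGTGA the counts were 1 of 15 and 2 of 16, and neither difference was tested. The stretches lie at chr15:89477425-89477460 (Arsa, minus strand), chr4:117887330-117887385 (Atp6v0b, minus), chr16:44139365-44139410 (Atp6v1a, minus), chr11:119267803-119267848 (Gaa, plus), chr9:114401010-114401055 (Glb1, plus), chr8:13159080-13159160 (Lamp1, plus), chrX:134601174-134601252 (Gla, minus), chr8:3500428-3500499 (Mcoln1, plus) and chr11:119355514-119355559 (Sgsh, minus). The first 6 genes rose and the other 3 did not pass.

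Arsa: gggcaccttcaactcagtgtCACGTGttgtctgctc
Atp6v0b: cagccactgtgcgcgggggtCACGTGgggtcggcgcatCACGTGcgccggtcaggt
Atp6v1a: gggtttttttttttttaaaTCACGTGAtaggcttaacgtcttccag
Gaa: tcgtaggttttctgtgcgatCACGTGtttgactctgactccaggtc
Glb1: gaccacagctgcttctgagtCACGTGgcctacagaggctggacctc
Lamp1: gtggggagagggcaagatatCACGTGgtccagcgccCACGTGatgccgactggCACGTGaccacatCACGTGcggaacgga
Gla: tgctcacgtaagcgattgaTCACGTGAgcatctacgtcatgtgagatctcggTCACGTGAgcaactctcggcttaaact
Mcoln1: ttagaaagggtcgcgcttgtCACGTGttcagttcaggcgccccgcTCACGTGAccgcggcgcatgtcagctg
Sgsh: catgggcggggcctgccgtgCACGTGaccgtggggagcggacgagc

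Lamp1 held 4 copies of CACGTG between 10 and 56 bases before its start, Atp6v0b 2 copies at 13 and 31 bases and Mcoln1 2 copies at 40 and 66 bases, 1 of them in the longer form. Gla held 2 copies of the longer form, at 189 and 222 bases, and its fold change was 0.10. Sgsh held 1 copy at 24 bases and had a fold change of -0.10, while Atp6v1a held the longer form at 126 bases and rose by 0.59. Hexa, with the largest fold change, had no CACGTG in this window.

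The arrays held whole embryos, so a change in the number of cells of a type and one in RNA per cell cannot be told apart. Cell type markers differed between the same arrays. All 23 tested markers of visceral endoderm and yolk sac rose (median 2.28), led by Apoa4, Apom, Slc2a2 and Apoa1 at 3.18, 2.85, 2.62 and 2.61. Their summed signal was 3545 to 4695 in the Folr1+/+ arrays and 20728 and 21026 in the Folr1-/- arrays. None of the 23 fell below the limit on dim signals, but some passed it through the Folr1-/- arrays. Apoa2, Fga and Fgb, for example, had mean signals of 18.6, 25.0 and 28.6 in Folr1+/+ and 66.7, 88.4 and 208 in Folr1-/-. Over all tested genes 8.19% rose. Of the markers of trophoblast and decidua, 4 of 4 tested rose (median 1.09), while 5 of the 9 on the array were below the limit on dim signals. The sums over the 9 were 343 to 410.3 against 777 and 788. They were Prl8a2 at 1.44, Cdx2 at 0.89, Hand1 at 0.78 and Plac1, of which Cdx2 and Hand1 also act in the embryo. Prl8a2 had a mean signal of 17.4 in Folr1+/+, and 143 and 34.6 in Folr1-/-, so it passed the limit through the Folr1-/- arrays.

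Other markers were lower. Of the primitive erythroid markers 7 of 8 tested fell (median -1.89, sums of 5457 to 6396 against 216 and 629), led by Hbb-y, Hbb-bh1, Hba-x and Slc4a1 at -4.87, -3.74, -2.71 and -2.21. The summed neural progenitor markers had 1672 to 1857 against 482 and 547, and 9 of 11 tested fell (median -1.52), led by Zic1, Hes5, Sfrp2 and Pax6 at -2.82, -2.17, -2.03 and -1.84. The whole-embryo label is thus met by neural and erythroid markers in the Folr1+/+ arrays. Macrophages, whose lysosomes are abundant, had several markers at dim levels: Lyz2, Aif1, Fcer1g and Tyrobp averaged signals of 10.2, 7.97, 3.30 and 8.94 in Folr1+/+ and 6.55, 6.79, 3.97 and 9.27 in Folr1-/-. Of their 14 markers with a probe set, 3 were tested and 0 passed, with 2 of the 3 at an unadjusted p under 0.05. Their fold changes had both signs, at 0.56 for Csf1r (adjusted p = 0.0783), -0.50 for Laptm5 (adjusted p = 0.136) and -0.36 for Adgre1. The macrophage sums overlapped, at 236 to 338 and 263 and 272. The part of any of these cell types in the lysosomal result, macrophages among them, was not tested.

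The proton pump genes among the members moved in 1 direction. Each of the 11 tested genes was higher on both Folr1-/- arrays than on any Folr1+/+ array, which held for 22.5% of all tested genes. The median log2 fold change of the 11 was 0.76. Among these members, all 3 tested genes of the membrane sector V0 rose, 5 of 7 of the cytosolic sector V1 rose, and so did the accessory subunit gene Atp6ap1. Of 7 other subunit genes tested, described below, 2 rose. The median of the 11 genes, relative to the Folr1+/+ mean, was -0.01, -0.07 and 0.01 on the Folr1+/+ arrays and 0.81 and 0.74 on the Folr1-/- arrays.

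In the V0 sector, Atp6v0b encodes a proteolipid of the rotating ring that carries the protons. Its signals were 393, 277 and 312 in Folr1+/+ and 737 and 642 in Folr1-/-, a log2 fold change of 1.05 ± 0.17 (SE, adjusted p = 0.0019). The lowest Folr1-/- signal was well above the highest Folr1+/+ signal. Atp6v0d1, the subunit that joins the ring to the stalk, had 274, 256 and 305 against 523 and 474 (0.81 ± 0.15, adjusted p = 0.0047). Atp6v0a1, a form of the large subunit past which protons leave the ring, had 86.0, 78.3 and 67.7 against 113 and 147 (0.64 ± 0.19, adjusted p = 0.040). Its groups were separate on this probe set, but of its other 3 probe sets 2 went the other way, among them 1 with 42.7, 65.7 and 39.8 against 25.6 and 26.2. The mean of its probe sets gave a fold change of 0.0048.

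In the V1 sector, the catalytic subunit gene Atp6v1a had signals of 609, 617 and 613 in Folr1+/+ and 978 and 886 in Folr1-/- (0.59 ± 0.14, adjusted p = 0.015). The Folr1+/+ arrays were almost alike for this gene, with an SD of 3.75 around 613. Its partner in the ATP-splitting head, Atp6v1b2, had 566, 478 and 494 against 798 and 664 (0.50 ± 0.16, adjusted p = 0.051) and did not pass. The groups of Atp6v1b2 did not overlap, and its 95% interval ran from 0.16 to 0.84. The rotor axle genes Atp6v1d and Atp6v1f both rose. Atp6v1f had 88.7, 59.6 and 86.0 against 180.3 and 193 (1.12 ± 0.19, adjusted p = 0.0026), the largest fold change among the 11 tested pump members. Atp6v1d had 347, 386 and 427 against 687 and 643 (0.76 ± 0.15, adjusted p = 0.0060). On these probe sets the Folr1-/- signals of both lay clear of the Folr1+/+ signals. A further probe set of Atp6v1d, of similar brightness, had 306, 411 and 377 against 405 and 390 (0.13), with overlap. Another gave 0.73 without overlap.

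Of the stalk and regulatory subunits of V1, Atp6v1e1 had 590.5, 569 and 632 in Folr1+/+ and 1343 and 1080.2 in Folr1-/- (1.00 ± 0.15, adjusted p = 0.0011). Another probe set of Atp6v1e1, much dimmer, went the other way, with 37.8, 81.5 and 33.4 against 16.2 and 7.64, and the mean of its 3 probe sets gave a fold change of 0.0013. Atp6v1h, which regulates the joining of the sectors, had 197, 259 and 201 against 483 and 369.9 (0.91 ± 0.18, adjusted p = 0.0059). Atp6v1c1, the subunit at which V1 and V0 come apart, had 699, 660.0 and 763 against 806 and 905 (0.27 ± 0.15, adjusted p = 0.24) and did not pass. Its 95% interval ran from -0.05 to 0.59. Atp6ap1, on the X chromosome, had 420, 436 and 433 against 681 and 748 (0.71 ± 0.14, adjusted p = 0.0063), with no overlap.

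**Figure D2:**
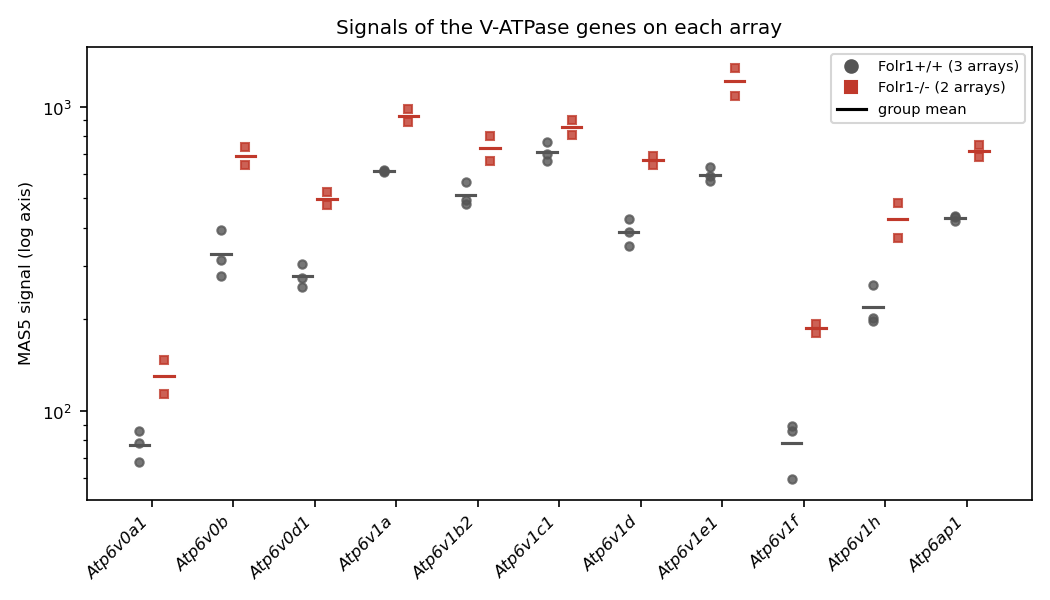
MAS5 signal (log axis) of each tested V-ATPase gene on the 3 Folr1+/+ arrays (circles) and the 2 Folr1-/- arrays (squares), with group means as lines; the brightness of different probe sets is not comparable. In each of the 11 genes both squares lie above all circles, closest for Atp6v1c1 (806 against 763).

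The pump count depended on the arrays used. It was 4 of 11 without Folr1-/- replicate 1, where the calls of Atp6v0d1 (0.74), Atp6v1a (0.52), Atp6v1d (0.71), Atp6v1h (0.73) and Atp6v0a1 (0.81) were lost, and 7 without Folr1-/- replicate 2 or without Folr1+/+ replicate 3. Atp6ap1 was lost without Folr1-/- replicate 2 (0.65), Atp6v1a without Folr1+/+ replicate 3 (0.59), and Atp6v0a1 without Folr1-/- replicate 2, Folr1+/+ replicate 2 or Folr1+/+ replicate 3.

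The hydrolases were mixed. Of 18 tested, 6 rose, 0 fell and 12 did not pass, with a median of 0.33, while 8.19% of all tested genes rose. The 2 groups of arrays did not overlap in 10 hydrolases, each time with Folr1-/- higher. Over all tested genes this held for 22.5% in that direction and 46.7% in either. Those that act on glycosphingolipids and sphingomyelin gave 3 calls among 7 tested (median 0.66), those that act on glycoproteins and glycogen 2 among 3 (0.66), those that act on glycosaminoglycans 0 among 4 (0.06, with 0 at an unadjusted p under 0.05), and the peptidase, thioesterase, lipase and phosphatase 1 among 4 (0.27). Each enzyme was counted in 1 group only, also where it acts on more than 1 kind of substrate, so these counts depend on that placing. Hexa and Glb1, for example, were counted with the glycosphingolipid enzymes only. The difference between these groups, and between the hydrolases and the pump, was not tested.

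Hexa, the alpha subunit of the hexosaminidase that is lost in Tay-Sachs disease, had the largest fold change of all 37 genes. Its signals were 490, 327 and 557 in Folr1+/+ and 1193 and 992 in Folr1-/- (1.25 ± 0.21, SE, adjusted p = 0.0019), which lies at the 98.1th percentile of fold changes over tested genes. Glb1, the beta-galactosidase that starts the breakdown of a ganglioside, had 48.5, 24.4 and 39.6 against 89.2 and 92.9 (1.03 ± 0.23, adjusted p = 0.010). The Folr1-/- arrays were close to each other and well above the Folr1+/+ arrays. Arsa, the sulfatidase lost in metachromatic leukodystrophy, had 58.4, 71.1 and 82.6 against 137 and 105 (0.66 ± 0.20, adjusted p = 0.044). The sialidase gene Neu1 had 29.0, 12.1 and 27.4 against 51.3 and 45.8 (0.76 ± 0.25, adjusted p = 0.057), without overlap, and did not pass. Neu1 lies just above the limit on dim signals, at the 40.6th percentile of mean level. The acid sphingomyelinase gene Smpd1 (0.25 ± 0.18), the acid ceramidase gene Asah1 (0.22 ± 0.17) and the alpha-galactosidase gene Gla (0.10 ± 0.21) had overlapping groups.

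Among the enzymes of glycoprotein and glycogen breakdown, Manba, a beta-mannosidase, had 32.4, 55.6 and 35.2 in Folr1+/+ and 95.5 and 85.6 in Folr1-/- (0.92 ± 0.22, adjusted p = 0.015). Gaa, the acid glucosidase that degrades glycogen in lysosomes, had 92.9, 88.1 and 109.9 against 167 and 158 (0.66 ± 0.17, adjusted p = 0.024). On these probe sets every Folr1-/- signal of both genes exceeded every Folr1+/+ signal. The other probe set of Gaa had 86.6, 76.0 and 57.2 against 89.1 and 82.5 (0.20), with overlap. With the mean of its probe sets Gaa did not pass. The alpha-mannosidase gene Man2b1 had 167, 202 and 203 against 265 and 294 (0.52 ± 0.16, adjusted p = 0.054) and did not pass, though its groups were also separate.

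Tpp1, a peptidase lost in a neuronal ceroid lipofuscinosis, had 307, 274 and 274 in Folr1+/+ and 407 and 406 in Folr1-/- (0.49 ± 0.15, adjusted p = 0.047). It was the smallest fold change that passed, and another of its probe sets gave 0.12. The acid lipase gene Lipa (0.41 ± 0.18, adjusted p = 0.15), the thioesterase gene Ppt1 (0.14 ± 0.18) and the acid phosphatase gene Acp2 (0.01 ± 0.22) did not pass.

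The 4 tested enzymes placed in the glycosaminoglycan group had fold changes near 0. The beta-glucuronidase gene Gusb had 0.12 ± 0.16 (SE), the iduronidase gene Idua 0.09 ± 0.20, the sulfatase gene Galns 0.03 ± 0.23 and the sulfamidase gene Sgsh -0.10 ± 0.20, the single negative value among the 37. Their 95% intervals reached at most 0.54 upward, and the lowest bound was -0.53. The fold changes of Gaa and Arsa, both 0.66, lay outside these intervals. The intervals of Gaa (0.28 to 1.04) and Arsa (0.23 to 1.10) overlapped them. Of the others in this group, Naglu, an N-acetylglucosaminidase gene, and Ids, an iduronate sulfatase gene, were too dim to test in the main setting.

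The dim members had lower signals in Folr1-/-, apart from Tfeb. Naglu had signals of 28.5 to 44.6 in Folr1+/+ and 14.1 and 23.0 in Folr1-/-. Ids had 23.4 to 32.6 against 10.3 and 17.4, and the galactosylceramidase gene Galc had 25.2 to 32.2 against 16.7 and 19.2. In each of the 3 genes both Folr1-/- signals were below every Folr1+/+ signal, which held for 24.2% of all tested genes. With no limit on dim signals, their log2 fold changes were -0.57 ± 0.24 (SE), -0.53 ± 0.22 and -0.36 ± 0.20, with adjusted p values of 0.22, 0.21 and 0.34. Tfeb, the transcription factor that activates many lysosomal genes, had 2.08 to 18.3 against 12.3 and 15.9, near the bottom of the array's range, so its level was not resolved here.

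Hydrolase calls also depended on the arrays used. They numbered 1 of 18 without either Folr1-/- array, where Hexa kept its call (1.12 without replicate 1 and 1.38 without replicate 2), and 3 without Folr1+/+ replicate 2 or 3. Gaa and Glb1 lost their calls without either Folr1-/- array, Manba also without Folr1+/+ replicate 3, Gaa also without Folr1+/+ replicate 1 or 2, and Arsa and Tpp1 without any of the 5 arrays.

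Among the membrane proteins, Lamp1, a heavily glycosylated protein of the lysosomal membrane, rose. Its signals were 2175, 2797 and 2589 in Folr1+/+ and 3795 and 3448 in Folr1-/- (0.53 ± 0.15, SE, adjusted p = 0.035). The call of Lamp1 was lost without Folr1+/+ replicate 1 or 3 and without either Folr1-/- array, with fold changes of 0.42 to 0.60. Mcoln1, a calcium channel of the lysosome, had 111, 138 and 112 against 212 and 159 (0.55 ± 0.19, adjusted p = 0.067). Npc1, which exports cholesterol, had 77.8, 63.1 and 87.7 against 103 and 136 (0.55 ± 0.20, adjusted p = 0.082). Neither passed, though the groups of both were separate.

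The other membrane proteins had overlapping groups. Lamp2, on the X chromosome, had a fold change of 0.24 ± 0.31 (SE), with 420.6 to 1039 in Folr1+/+ and 585 and 944 in Folr1-/-, and that SE was the largest among the 37 genes. The other 3 probe sets of Lamp2 differed from each other. The brightest of them had 505, 420.2 and 449.8 against 498 and 486 (0.10), with overlap, while a dimmer one had 64.7, 55.0 and 63.1 against 107 and 111 (0.70) and the dimmest 7.59, 14.2 and 12.6 against 22.6 and 24.3 (0.53). Scarb2, a membrane protein that carries glucocerebrosidase to lysosomes, had 0.03 ± 0.16, with an interval of -0.31 to 0.37.

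No soluble cofactor passed, and 0 of the 3 had an unadjusted p under 0.05. Gm2a, which presents a ganglioside to hexosaminidase, had 99.96, 118 and 126 in Folr1+/+ and 171 and 123 in Folr1-/- (0.31 ± 0.19, SE, adjusted p = 0.31). Psap, the precursor of the saposins, had 515, 364 and 301 against 536 and 421 (0.30 ± 0.21, adjusted p = 0.38). The groups overlapped in Gm2a and Psap. Npc2, which hands cholesterol to Npc1, had 0.16 ± 0.13 on its bright probe set, with 2889 to 3240.3 against 3321 and 3546. Its other probe set had 1178, 840 and 846 against 1616 and 1750.2, a fold change of 0.82, and with the mean of both Npc2 passed (0.49, adjusted p = 0.032).

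**Figure D3:**
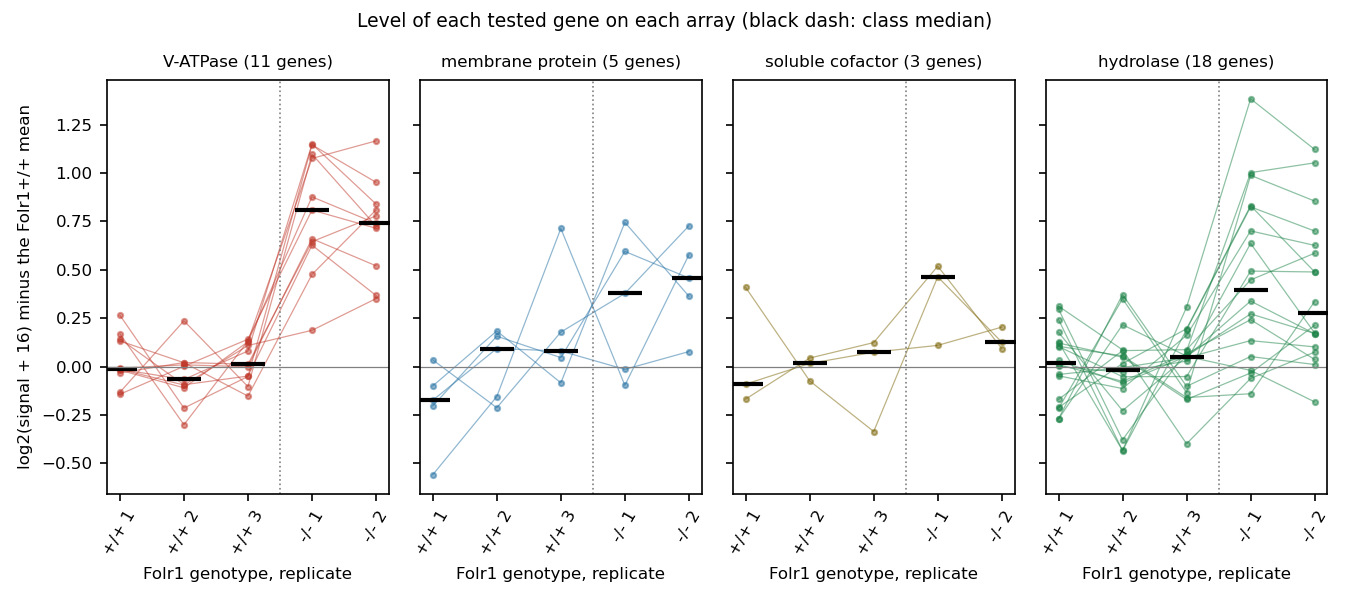
Each tested gene's log2(signal + 16) on each array, minus its Folr1+/+ mean (y axis), by class; thin lines join the same gene across arrays and carry no order, and black dashes are class medians. The V-ATPase medians are 0.81 and 0.74 on the Folr1-/- arrays, those of the hydrolases 0.39 and 0.27, those of the membrane proteins 0.38 and 0.46 and those of the soluble cofactors 0.46 and 0.13.

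Probe sets of the same gene gave a partial check within the arrays. Of the 37 tested genes, 24 had more than 1 probe set. For genes that rose, 9 of 12 other probe sets had a positive fold change, and for genes that did not pass, 19 of 24 had the sign of the brightest one. The 3 that opposed a call belonged to Atp6v0a1 and Atp6v1e1. Of the 16 called genes, 4 (Atp6v0b, Atp6v1e1, Atp6ap1 and Gaa) rest on probe sets whose names mark probes shared with other transcripts, so their levels could include such transcripts.

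**Figure D4:**
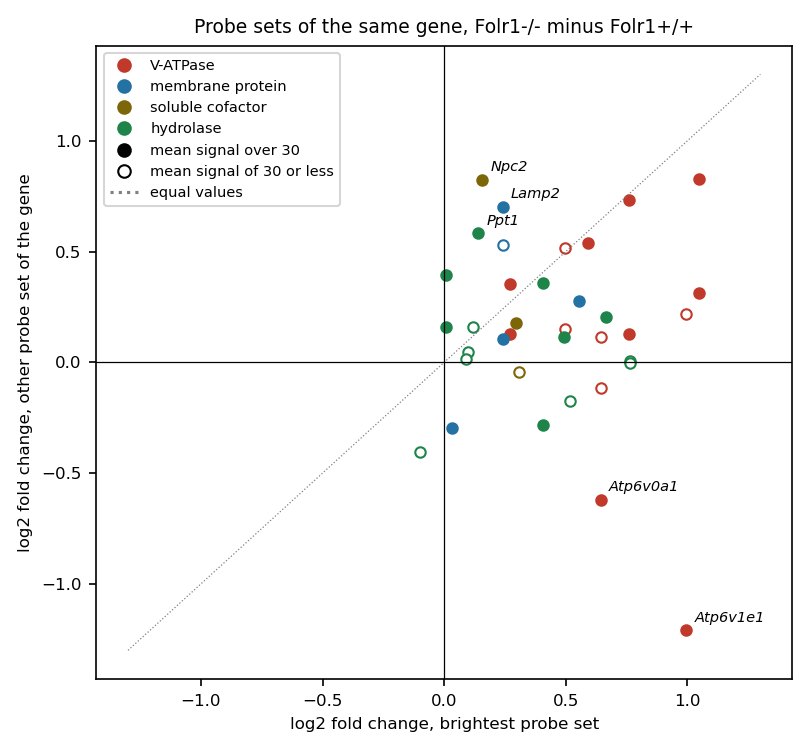
Log2 fold change of the brightest probe set of a gene (x axis) against that of each other probe set of the gene (y axis), for the tested genes with several; open points have a mean signal of 30 or less, and the dotted line marks equal values. Most points lie at positive values on both axes, with Atp6v1e1 (-1.21) and Atp6v0a1 (-0.62) lowest, and Npc2, Lamp2 and Ppt1 higher on a dimmer probe set.

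Of the 4 X-linked members (Gla, Ids, Lamp2 and Atp6ap1), 3 were tested and Atp6ap1 rose. The sex-linked genes separate the same arrays, so a difference in sex and one in genotype cannot be told apart for any member, X-linked or autosomal. The part of sex in the value of Atp6ap1 or of any other member was not tested. Without the X- and Y-linked genes 15 of 34 tested members rose, so the other calls were all autosomal.

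Genes of the same pathways outside the 44 were counted in the same way. Of 7 other V-ATPase subunit genes tested, 2 rose, 0 fell and 5 did not pass (median 0.28), while 8.19% of all tested genes rose. Atp6v0e, a small V0 subunit, had 225, 246 and 295 in Folr1+/+ and 568 and 588 in Folr1-/- (1.14 ± 0.16, SE, adjusted p = 0.00070). Rnasek, which associates with the pump, had 31.5, 18.1 and 16.2 against 63.8 and 56.1 (1.02 ± 0.23, adjusted p = 0.011). Its mean signal in Folr1+/+ was 21.9, so Rnasek passed the limit on dim signals through the Folr1-/- arrays. Atp6v0a2, Tcirg1, Atp6v0e2, Atp6v1g1 and Atp6ap2 had fold changes of -0.05 to 0.32. The kidney forms Atp6v1b1 and Atp6v0a4 were dim in both groups, with mean signals of at most 13.7.

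Of 21 other lysosomal enzymes and membrane proteins tested, 1 rose and 20 did not pass (median 0.05), and the share that rose, 4.76%, was no higher than the 8.19% of all tested genes. The gene that rose was Ifi30, a lysosomal thiol reductase, with 113, 117 and 94.6 against 323 and 297 (1.40 ± 0.17, adjusted p = 0.00025). Of 23 genes for the delivery of lysosomal enzymes, 4 rose, 1 fell and 18 did not pass (median 0.28). Those that rose were the sorting receptor gene Sorl1 (0.98 ± 0.27), the epithelial adaptor subunit gene Ap1m2 (0.94 ± 0.17), Sumf1 (0.68 ± 0.19), which activates sulfatases, and the retromer gene Vps26a (0.50 ± 0.15). The sorting receptor gene Sort1 fell by 0.53 on the log2 scale.

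Of the 11 tested genes of nutrient sensing at the lysosome, 0 rose, 1 fell and 10 did not pass (median 0.17). The kinase gene Mtor fell by 0.50 on the log2 scale, with 608, 536 and 592 against 368 and 444 (adjusted p = 0.048). The TFEB relatives Mitf and Tfec were below the limit on dim signals. Of 23 autophagy genes, 2 rose and 21 did not pass (median 0.07): Gabarap (0.79 ± 0.23), which marks autophagosomes, and Vmp1 (0.53 ± 0.16), which helps them form. The share that rose, 8.70%, was near that of all tested genes.

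**Figure D5:**
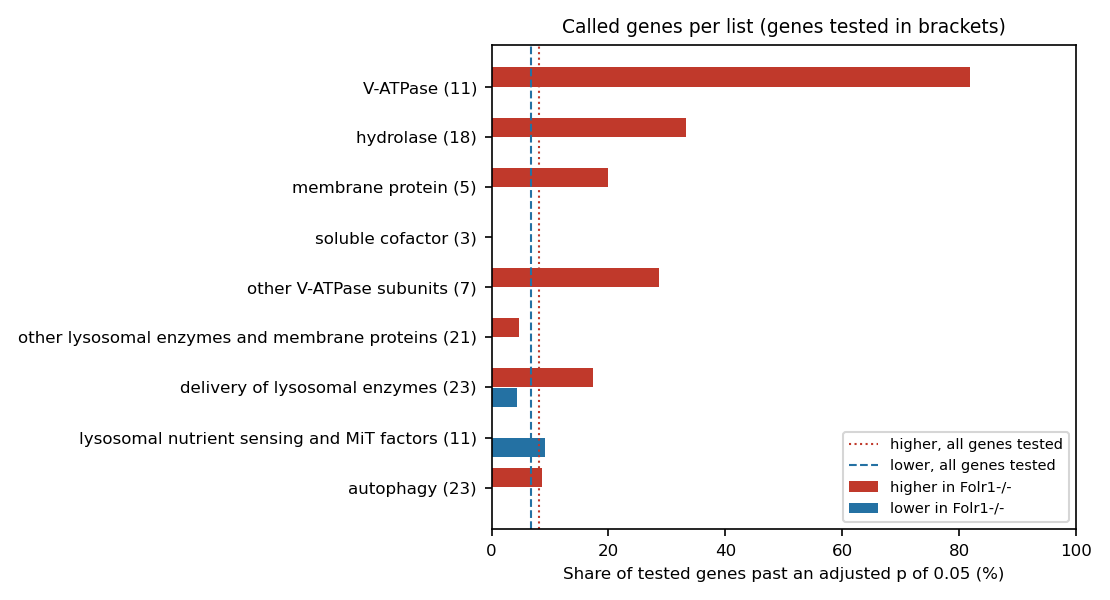
Share of tested genes (x axis, %) that rose or fell past an adjusted p of 0.05, for each class of members and each other list, with the shares over all tested genes as vertical lines (8.19% higher, 6.79% lower). The V-ATPase members stand at 81.8% and the hydrolases at 33.3%, while the other lysosomal enzymes and membrane proteins stand at 4.76%. Members and lists were chosen with earlier results of these data known.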

How the data were processed

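The authors deposited a table of linear MAS5 signal intensities, 1 per probe set and array; the submitters' processing notes name MAS5 and no version. The trimmed means were alike on all arrays. Probe sets with 1 gene symbol in the platform annotation (20380 of 22690, of which 64 were controls, 691 had several symbols and 1555 were not listed) were kept, and among the probe sets of a gene the one brightest on average, in log2(signal + 16), was used. Genes under the 40th percentile of that mean (a signal of about 30) were left out. Groups were compared with limma 3.58.1 in R 4.3.3 (lmFit, eBayes with an intensity trend, 3 residual degrees of freedom), with Benjamini-Hochberg adjustment over 7436 genes; fold changes are on the log2(signal + 16) scale and understate those of dim genes. The code was tested on simulated arrays. The members and lists were chosen with earlier results of these data known. The text names every member, with signals per array for those that passed and for up to 2 per class that did not, and at most 4 genes of each other list; further names were chosen after their values were seen. RefSeq gene names and promoters are of GRCm38.p6. The number of arrays limits the precision. Alternatives numbered 17.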

Additional observations from a re-analysis of the deposited data

How the results depend on the processing

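Among the 17 alternatives, the fold change of 31 to 36 of the 37 tested members was above 0 wherever all 37 were tested, and no call of a member changed direction. The count of 16 members that rose was 13 to 20 in the settings with all arrays, except 10 of 41 with no limit on dim signals, and 5 to 14 with an array left out. Leaving out an array gave 4 to 10 calls for the V-ATPase, 1 to 4 for the hydrolases, 0 to 2 for the membrane proteins, 0 for the soluble cofactors, and 225 to 566 higher and 144 to 441 lower over all genes. With no limit on dim signals 2 hydrolases, 0 membrane proteins and 311 genes lower were called; with the limit at the 60th percentile 3 hydrolases were. For the membrane proteins the count was 0 with no intensity trend and 2 with median centring, array weights or the Actb ratio of 3' to 5' signal as a covariate, and the mean of probe sets gave 1 soluble cofactor. The cause was not tested. With median centring 69.3% of all calls were higher, in place of 54.7%. Calls held in all alternatives for Hexa, Atp6v0b and Atp6v1f. The replicate number as a block gave 15 members and 8 V-ATPase genes, but arrays shared only a number (correlations of deviations 0.02 and -0.06), and it gave Lamp2 a call. Neu1 passed in 6 alternatives, Atp6v1b2 in 5, Mcoln1 in 4 and Man2b1 in 3. Signals near background limit Neu1, Glb1, Manba and the members that were not tested.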
